A study of Mus musculus with 5 samples.

Results

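The 10 genes described here encode proteins of glucose uptake, glycolysis and mTOR signalling: Slc2a1, Slc2a3, Hk1, Hk2, Pfkp, Ldha, Pdk1, Hif1a, Myc and Mtor. They were chosen by name, as genes of 1 metabolic programme among 21887 protein-coding genes of the RefSeq annotation, and the peaks described are those whose nearest gene in the deposited annotation is 1 of them. Binding of Nr1d1 (REV-ERBα) had been mapped by ChIP-seq in 5 libraries: 3 pull-downs with an Nr1d1 antibody, 1 mock pull-down with IgG and 1 library of input DNA. All 5 libraries came from wild-type C57BL/6 mice aged 4 to 6 weeks, whose naive CD4 T cells were activated with antibodies against CD3 and CD28, differentiated to Th1 cells with IL-12, IFNγ and anti-IL4, harvested after 3 to 4 days and fixed in 1% formaldehyde for 30 minutes. Since every library, the mock and the input included, carries the Nr1d1 antibody in its label, the sample titles were used to assign the groups. The peak lists hold no expression values, so the Th1 label could not be checked against marker genes, and no list gives a value per library, so there is no replicate check and no test in what follows. The lists held 19586 ChIP peaks and 17111 IgG peaks, both called over the same input, and 14471 ChIP peaks that overlapped no IgG peak, here called ChIP-specific. The ChIP and IgG lists share that 1 input library, and neither gives a read count, so that sequencing depth at a peak is unknown.

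Nr1d1 is a nuclear receptor that represses transcription in the circadian clock by recruiting the NCoR-HDAC3 corepressor. It binds DNA at the hexamer AGGTCA preceded by an A/T-rich stretch. A T cell that is activated takes up more glucose and turns much of it into lactate. The kinase mTOR senses nutrients and growth signals and promotes the synthesis of HIF-1α and MYC, transcription factors that raise the expression of glucose transporters and glycolytic enzymes.

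The start-site windows below overlap peaks that are described further on. Each is the RefSeq promoter window of GRCm38.p6, from 250 bases before to 50 bases after an annotated start, written 5′ to 3′ on the strand of the gene, and capitals mark the bases inside a Nr1d1 ChIP peak. The windows are Mtor at chr4:148448332-148448631 (plus strand), the downstream start of Hk1 at chr10:62340372-62340671 (minus strand), the downstream start of the antisense RNA gene Hk1os at chr10:62362085-62362384 (plus strand), and Pik3cb, a catalytic subunit gene of phosphoinositide 3-kinase upstream of mTOR, at chr9:99140162-99140461 (minus strand). The Hk1os window is shown because its peak was also called with IgG. The other windows overlap ChIP-specific peaks. The promoter peak of Slc2a3 is not shown, as that gene has no RefSeq promoter window here.
Mtor: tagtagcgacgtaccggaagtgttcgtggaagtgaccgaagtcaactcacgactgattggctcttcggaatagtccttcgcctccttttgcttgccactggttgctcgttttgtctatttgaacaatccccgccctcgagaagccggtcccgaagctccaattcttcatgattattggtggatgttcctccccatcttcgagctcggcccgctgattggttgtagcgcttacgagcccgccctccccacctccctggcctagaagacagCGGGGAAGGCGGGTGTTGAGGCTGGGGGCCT
Hk1 downstream start: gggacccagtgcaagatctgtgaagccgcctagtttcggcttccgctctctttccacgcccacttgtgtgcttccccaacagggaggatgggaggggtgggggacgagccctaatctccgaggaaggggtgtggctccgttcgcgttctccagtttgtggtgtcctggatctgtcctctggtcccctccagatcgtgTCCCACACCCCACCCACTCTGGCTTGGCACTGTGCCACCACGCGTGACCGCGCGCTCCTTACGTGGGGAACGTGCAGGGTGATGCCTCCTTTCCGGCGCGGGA
Hk1os downstream start: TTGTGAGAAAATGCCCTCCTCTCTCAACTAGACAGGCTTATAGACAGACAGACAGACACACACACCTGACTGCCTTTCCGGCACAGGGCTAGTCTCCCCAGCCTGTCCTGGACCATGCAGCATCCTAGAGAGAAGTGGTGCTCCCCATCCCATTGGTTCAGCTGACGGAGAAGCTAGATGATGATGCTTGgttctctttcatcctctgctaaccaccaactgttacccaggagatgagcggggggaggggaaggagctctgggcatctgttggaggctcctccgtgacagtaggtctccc
Pik3cb: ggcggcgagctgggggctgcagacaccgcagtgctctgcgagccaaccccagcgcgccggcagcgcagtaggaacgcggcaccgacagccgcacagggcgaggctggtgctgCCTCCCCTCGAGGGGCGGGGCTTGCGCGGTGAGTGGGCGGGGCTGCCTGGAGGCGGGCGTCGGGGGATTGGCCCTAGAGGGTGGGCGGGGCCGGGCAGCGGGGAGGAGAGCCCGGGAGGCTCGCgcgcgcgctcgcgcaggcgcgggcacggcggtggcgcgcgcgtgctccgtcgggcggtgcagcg

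Of the 10 genes, 3 were nearest to a ChIP peak, Slc2a3, Hk1 and Mtor, with 5 peaks in all. Over all protein-coding genes the share nearest to a ChIP peak was 22.0%. A ChIP-specific peak was assigned to 2 of the 10, Slc2a3 and Mtor, against 17.5% of all genes, and an IgG peak to 2 of the 10, Hk1 and Mtor, against 17.0% of all genes. These counts were close to the background shares. By class, 2 of the 3 ChIP-specific peaks were annotated as promoter-TSS and 1 as intron, where 5.52% and 30.8% of all ChIP-specific peaks had these classes. A ChIP-specific promoter peak was thus assigned to 2 of the 10 genes, against 2.67% of all genes, and an IgG promoter peak to 0 of the 10, against 3.20%. With 10 genes chosen by hand this difference was not tested. The other 7 genes, Slc2a1, Hk2, Pfkp, Ldha, Pdk1, Hif1a and Myc, were nearest to no peak of any list. That was the common case, as 22.0% of all genes were nearest to a ChIP peak and 17.0% to an IgG peak.

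**Figure D1:**
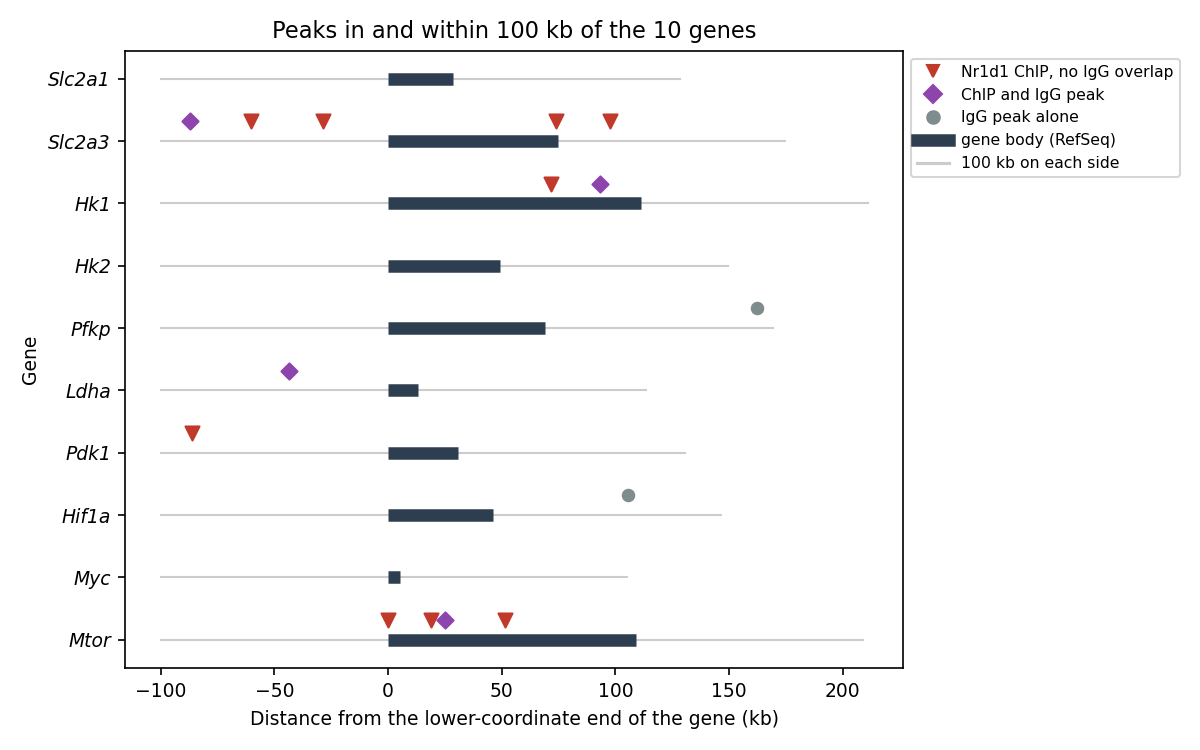
Peaks in and around each of the 10 genes, by distance in kb from the lower-coordinate end of the gene; dark bars are RefSeq gene bodies and grey lines reach 100 kb to each side. Red triangles are ChIP-specific peaks, purple diamonds ChIP peaks that overlap an IgG peak, and grey circles IgG peaks alone; peaks inside a gene body are seen at Slc2a3, Hk1 and Mtor and at none of the other 7 genes.

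Among the glucose transporters, Slc2a3 had a ChIP-specific peak at its start and Slc2a1 had no peak in its neighbourhood. Slc2a3 encodes GLUT3, a high-affinity transporter of neurons and lymphocytes. Its peak was 175 bp long with an FDR of 0.0343 (chr6:122801601-122801774, mm10), and its centre lay 47 bp upstream of the TSS used in the deposited annotation. The RefSeq gene extends further, to 589 bp beyond the end of the peak, so that the peak counts as inside the gene body there. No IgG peak lay nearer to the body of Slc2a3 than 87.1 kb. Within 100 kb of Slc2a3 there were 3 more ChIP-specific peaks, assigned to the predicted genes Gm10420, Gm10224 and Gm26826. The one at Gm10224, a pseudogene by RefSeq, was a promoter peak 28.8 kb from Slc2a3 with an FDR of 0.00885, and the intronic one at Gm26826 lay 22.7 kb away with an FDR of 0.00683. A further ChIP peak, 87.0 kb away and assigned to Dppa3, coincided with the IgG peak. Slc2a3 therefore had the most ChIP peaks within 100 kb of the 10 genes, at 5. Slc2a1 encodes GLUT1, the main glucose transporter induced when T cells are activated. Within 100 kb of its body neither list held a peak, and the nearest ChIP-specific and IgG peaks were 311 kb and 285 kb away.

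Hk1, which encodes the hexokinase that phosphorylates glucose in most tissues, had 2 ChIP peaks inside its body, both at or just before starts of Hk1os, a long noncoding RNA gene that lies wholly within Hk1 (chr10:62340234-62363611). The one assigned to Hk1 was intronic, 375 bp long and had an FDR printed as 0 (chr10:62361901-62362274). It was also called with IgG, at 275 bp and an FDR of 0.000934 (chr10:62361951-62362224), and the IgG peak lay wholly inside the ChIP peak and covered 73.3% of it. Both were listed 187 bp downstream of a TSS of Hk1. That TSS belongs to a transcript of the authors' annotation: the RefSeq starts of Hk1 were 17.8 kb and 21.7 kb from the peak centre. The peak centre lay 247 bp upstream of the downstream RefSeq start of Hk1os, and 190 bases of the Hk1os window printed above were inside the ChIP peak, 140 of them also inside the IgG peak.

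The other peak in Hk1 was ChIP-specific and was assigned to Hk1os as a promoter peak, 94 bp from its TSS (chr10:62340226-62340474, 250 bp, FDR 0.0103). In RefSeq it covered the upstream start of Hk1os and, on the opposite strand, the downstream start of Hk1, with its centre 71 bp past the latter, and 103 bases of the Hk1 window printed above were inside it. The deposited annotation, by its own set of TSSs, gave this peak to the antisense gene alone. By RefSeq starts the peak centre was 116 bp from that of Hk1os and 71 bp from that of Hk1. Counted by RefSeq windows, Hk1 and Mtor had a ChIP-specific peak that overlapped a window. These were 2 of the 8 genes that have a window, against 1.85% of 17492 protein-coding genes with one. The peak covered the start itself at Hk1 and not at Mtor. A count that takes either definition held 3 of the 10 genes, Slc2a3, Hk1 and Mtor. This wider count was added after seeing the data, and its share over all genes was not computed. ChIP-seq does not tell strands apart, so the peak cannot be ascribed to Hk1 or to Hk1os.

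The genes Hk2, Pfkp, Ldha and Pdk1 had no peak of either list inside their bodies, and the peak nearest to any of them was 43.3 kb away. Hk2 encodes the inducible hexokinase of activated lymphocytes and tumours, and its nearest ChIP-specific and IgG peaks were 146 kb and 117 kb away. For Pfkp, the platelet-type phosphofructokinase, the distances were 166 kb and 92.9 kb. Ldha, which encodes the lactate dehydrogenase subunit that favours lactate formation, had a ChIP peak 43.3 kb away in an intron of Gtf2h1, a subunit gene of the general factor TFIIH, with an FDR printed as 0 (chr7:46798601-46798949). The IgG list held a peak with the same start and end and the same printed FDR. The nearest ChIP-specific peak was 213 kb from Ldha. Pdk1 encodes a kinase that inhibits pyruvate dehydrogenase and so keeps pyruvate from the mitochondrial cycle. The nearest ChIP-specific peak lay 86.3 kb away, at the promoter of the integrin gene Itga6 (chr2:71786776-71786949, 175 bp, FDR 0.00956), and the nearest IgG peak was 382 kb away.

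The transcription factor genes Hif1a and Myc were the farthest of the 10 from ChIP peaks. The nearest ChIP-specific peak was 698 kb from Hif1a, which encodes the oxygen-regulated subunit of HIF-1, and 3.22% of protein-coding genes lay farther from one. An IgG peak in an intron of Syt16 was 59.4 kb from Hif1a (chr12:74006951-74007149, 200 bp, FDR 0.00845), and 61.8% of genes lay farther from an IgG peak. For Myc the nearest ChIP-specific peak was 658 kb away, with 3.67% of genes farther, and the nearest IgG peak 1170765 bp away, with 1.14% of genes farther. Myc thus lay far from the peaks of both lists, whereas Hif1a lay far from ChIP peaks and nearer to an IgG peak than the median gene.

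Mtor encodes the kinase subunit shared by the complexes mTORC1 and mTORC2, and it had the most assigned peaks of the 10 genes. Its promoter peak was ChIP-specific, 225 bp long, with an FDR of 0.0149 and a centre 87 bp downstream of the TSS (chr4:148448601-148448824). It began 19 bases past the RefSeq start, so 31 bases of the window printed above were inside it and the start itself was not. An intronic ChIP-specific peak of 300 bp and FDR 0.00837 lay 18650 bp downstream of the TSS (chr4:148467126-148467424). The third ChIP peak, 350 bp long with an FDR printed as 0, lay in an intron at 24825 bp (chr4:148473276-148473624), 6175 bp from the one before, centre to centre. It was shared with IgG: an IgG peak of 225 bp and FDR 0.00779, listed at 24787 bp (chr4:148473301-148473524), lay inside it and covered 64.2% of its length. The last ChIP peak inside Mtor was ChIP-specific and was assigned to Angptl7, a secreted angiopoietin-like protein whose gene lies within the body of Mtor. It was annotated as an exon of Angptl7, 435 bp from its TSS (chr4:148499951-148500099, 150 bp, FDR 0.00956). In all, 3 ChIP-specific peaks, 1 shared peak and no peak called with IgG alone lay in the body of Mtor. Over all protein-coding genes, 4.03% were nearest to 3 or more ChIP peaks, as Mtor was, and 5.64% to 2 or more ChIP-specific peaks.

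The peaks with an FDR printed as 0 at Hk1 and Mtor were the ones shared with IgG, and the ChIP-specific peaks in or assigned to the 10 genes had FDR values from 0.00837 to 0.0343. The same held for most of the list: of 1762 ChIP peaks with an FDR printed as 0, 1600 (90.8%) overlapped an IgG peak. FDR values are the authors' own and are read within a list only. In the ChIP-specific list the median FDR was 0.0146 and the median length 200 bp. The intronic Mtor peak stood near the top, with 7.90% of ChIP-specific peaks at a lower FDR. The Mtor promoter peak stood in the middle, with 51.0% at a lower FDR, and the Slc2a3 promoter peak near the end, with 87.0% at a lower FDR. Among all ChIP peaks, those shared with IgG included, 20.2% had a lower FDR than the intronic Mtor peak. For the Mtor and Slc2a3 promoter peaks these shares were 60.3% and 89.6%. Of all 19586 ChIP peaks, 5115 (26.1%) overlapped an IgG peak, and the IgG peak lay inside the ChIP peak in 68.2% of these, as it did at Hk1 and Mtor.

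**Figure D2:**
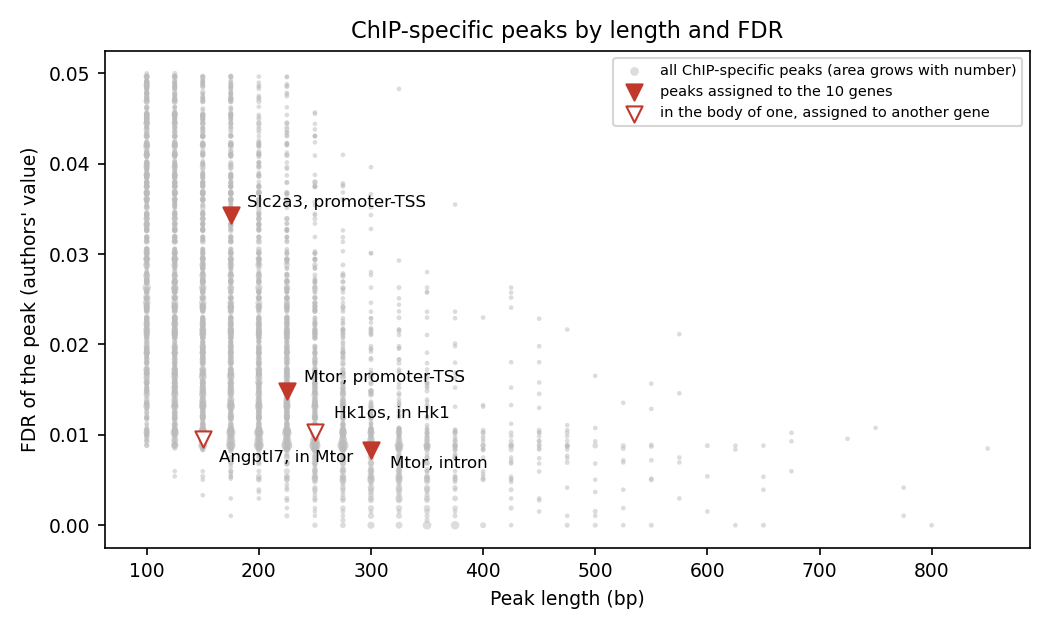
Length in bp (horizontal) and the authors' FDR (vertical) of all ChIP-specific peaks in grey, with the 3 peaks assigned to the 10 genes as filled triangles and the 2 that lie inside Hk1 or Mtor but were assigned to another gene as open triangles. The Slc2a3 promoter peak sits at an FDR of 0.0343 and 175 bp, and the other 4 have FDR values from 0.00837 to 0.0149.

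By distance, ChIP-specific peaks lay inside the bodies of 3 of them, Slc2a3, Hk1 and Mtor, against 13.7% of all protein-coding genes, while 6 of them were over 100 kb from a ChIP-specific peak, against 47.0% of all genes. The median distance to a ChIP-specific peak was 156 kb for the 10 genes and 89.7 kb for all genes. For IgG peaks the medians were 90.0 kb and 99.5 kb, and 4 of the 10 genes were over 100 kb away, against 49.9% of all genes. In windows of the gene body and 100 kb on each side, the 10 genes held 9 ChIP-specific peaks, 3.55 per Mb, against 4.18 per Mb over the same windows of all protein-coding genes. With 50 kb on each side the order turned, at 4.55 per Mb for the 10 genes against 4.38 per Mb. IgG peaks numbered 6, or 2.36 per Mb, against 4.34 per Mb with 100 kb, and 1.95 against 4.55 per Mb with 50 kb. Of the 9 ChIP-specific peaks, 4 were in or around Slc2a3 and 3 in Mtor, so the density of the 10 genes rests mainly on these 2 loci.

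**Figure D3:**
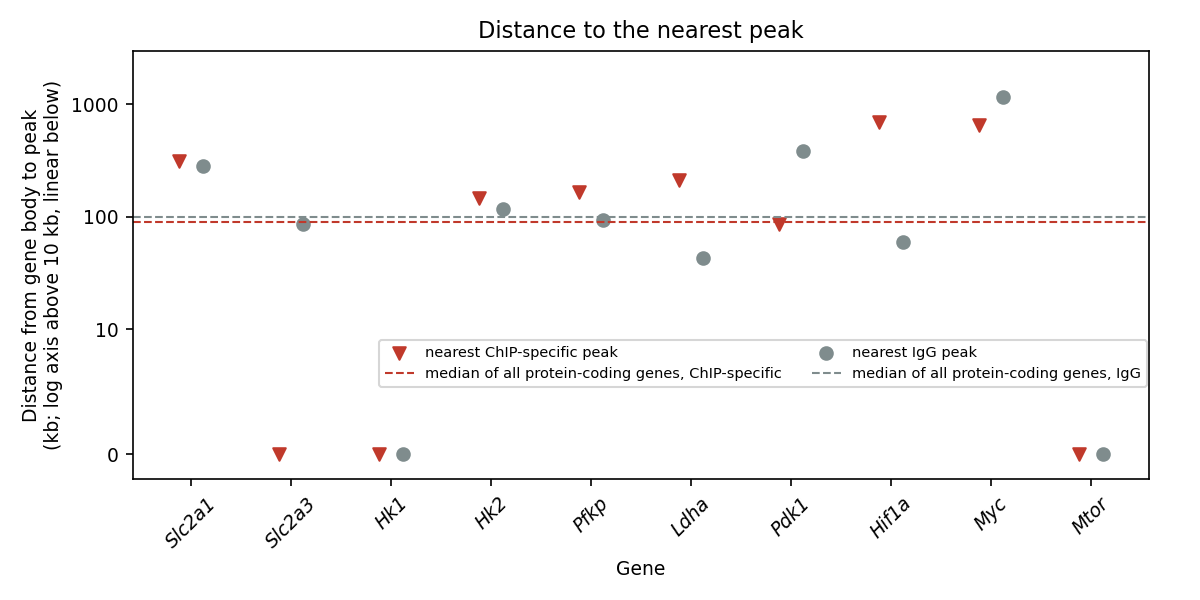
Distance in kb from the body of each of the 10 genes to the nearest ChIP-specific peak (red triangles) and IgG peak (grey circles), on an axis that is logarithmic above 10 kb and linear below; dashed lines are the medians over all protein-coding genes, 89.7 kb and 99.5 kb. Slc2a3, Hk1 and Mtor are at 0 kb for ChIP-specific peaks, and Hif1a and Myc are at 698 kb and 658 kb.

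Gene length moved with these counts. Hk1 (111 kb), Mtor (109 kb) and Slc2a3 (74.6 kb) were the 3 longest of the 10 genes, and they were the 3 with ChIP peaks. The others ran from 5.02 kb for Myc to 69.2 kb for Pfkp. Over all protein-coding genes the share with a ChIP-specific peak went up from 10.5% of those under 10 kb to 29.9% of those of 70 to 150 kb and 55.4% of longer ones, and the share nearest to an IgG peak was 11.2%, 27.6% and 56.2% in the same classes. Of the genes of 70 to 150 kb, 37.6% were nearest to a ChIP peak. A ChIP-specific promoter peak was assigned to 4.85% of the genes in that class, which holds Slc2a3 and Mtor, against 1.24% of those under 10 kb. The length classes were set after the values of the 10 genes had been seen, and the part of length in the result was not tested.

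**Figure D4:**
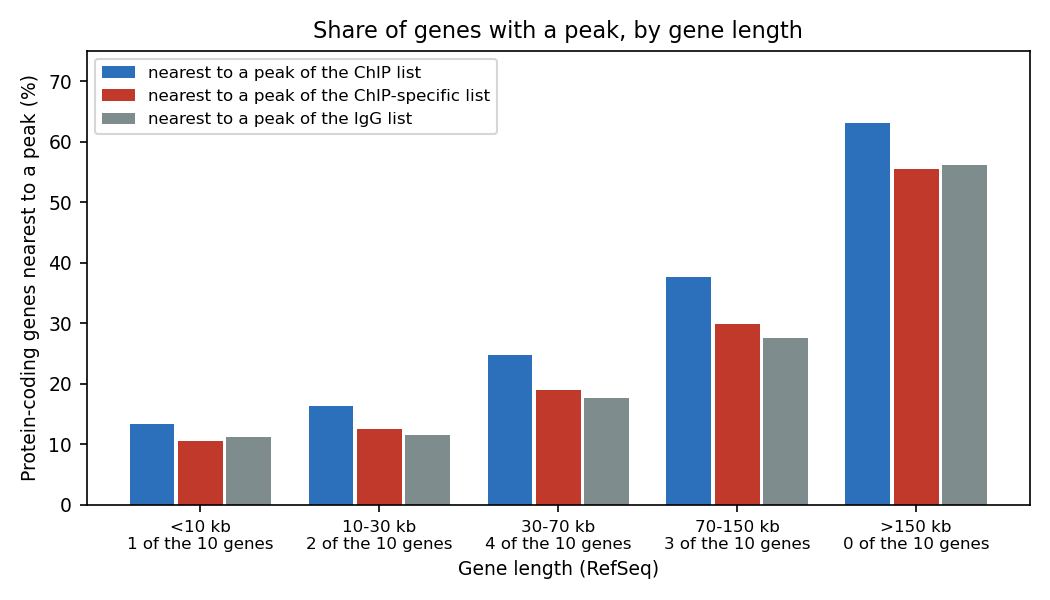
Share in percent of protein-coding genes that are nearest to a peak of the ChIP list (blue), the ChIP-specific list (red) or the IgG list (grey), by RefSeq gene length; the number of the 10 genes in each length class stands under it. All 3 lists climb with length, from 10.5% to 55.4% for ChIP-specific peaks, and the 3 genes of the 70 to 150 kb class are Hk1, Mtor and Slc2a3.

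Sequence features were read from the RefSeq promoter windows, of which 11 belong to 8 of the 10 genes. Slc2a3 and Myc have none in the table used here. The hexamer AGGTCA, searched on both strands, was present in 1 of the 11 windows, that of Hif1a, which had no peak over it, and in 16.3% of 32851 windows of all genes. Of all windows under a ChIP-specific peak 9.35% held AGGTCA, and of those under an IgG peak 9.22%. The longer TAGGTCA, which contains it, was present in 0 of the 11 and in 2.61% of all windows, and 2 copies of AGGTCA in the same direction with any 2 bases between them in 0 of the 11 and in 3 of all windows (0.00913%). None of the 4 windows printed above held AGGTCA, and these letters being absent from a window says nothing on binding elsewhere in the peak. The E-box CACGTG was present in 2 of the 11 windows, 1 window each of Ldha and Hif1a, and in 7.15% of all. The letters ACGTG, the core of the element bound by HIF-1 and also the end of the E-box, were present in 5 of the 11 and in 19.6% of all. Under a ChIP-specific peak 22.1% of windows held ACGTG, and under an IgG peak also 22.1%. Of the windows with a ChIP-specific peak, that of Hk1 held ACGTG at 2 places, 7 and 16 bases past the start and both inside the peak, and that of Mtor held none.

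GC content moved with the presence of a peak in both lists. The median GC content was 52.7% over all windows, 69.0% over the 417 windows under a ChIP-specific peak and 70.7% over the 575 under an IgG peak. The windows of the 10 genes had a median of 64.7%. Mtor, with a ChIP-specific peak, had 56.7% and 21 CpG dinucleotides, and the downstream start of Hk1 had 63.3% and 20. Windows without a peak reached higher values, 67.3% for Hk2 and for the upstream start of Ldha and 69.3% for Hif1a. Within the 10 genes the windows with a peak were thus not the richest in GC, and the upstream start of Hk1, without a peak, had 51.3% and 1 CpG. These values are for whole windows, of which the peaks cover a part. The bases inside the peak had 74.2% GC in the Mtor window (31 bases) and 68.0% in the Hk1 window (103 bases).

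**Figure D5:**
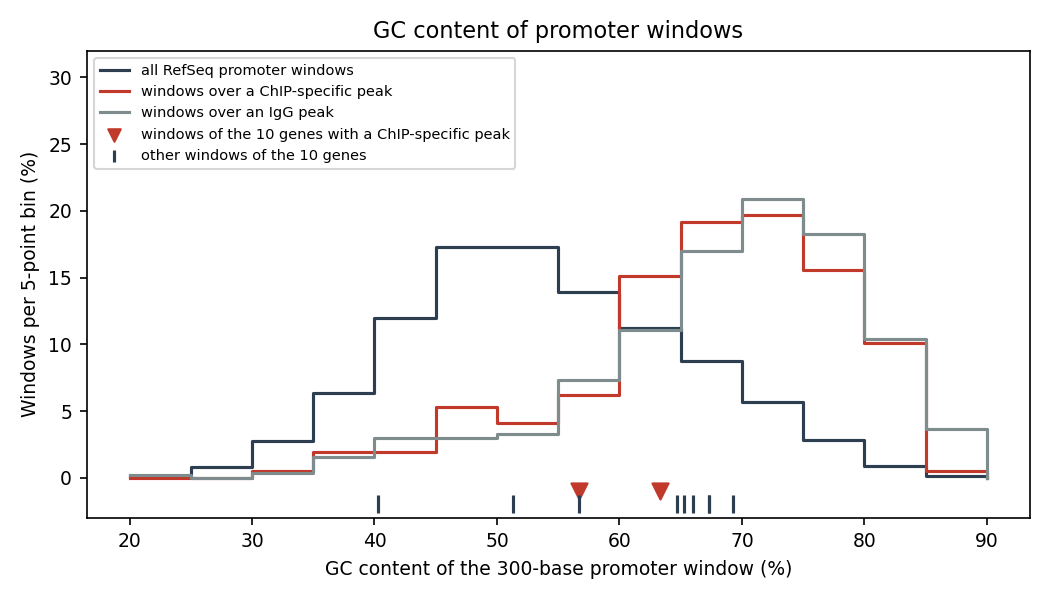
GC content in percent of the 300-base promoter windows: lines give the share of windows in each bin of 5 points for all windows (dark), those under a ChIP-specific peak (red) and those under an IgG peak (grey). Triangles below mark the windows of Mtor (56.7%) and of the downstream start of Hk1 (63.3%), which have a ChIP-specific peak, and ticks mark the other 9 windows of the 10 genes.

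The rest of the pathway was read from 5 lists of 111 further genes. A ChIP-specific peak was assigned to 14 of them (12.6%), an IgG peak to 15 (13.5%) and peaks of both kinds to 8, where the shares over all genes were 17.5%, 17.0% and 7.99%. Promoter-TSS peaks that were ChIP-specific were assigned to 3 of the 111, against 2.67% of all genes: Ldhb, Pdp1 and Pik3cb. None of these 3 was nearest to an IgG peak. Of the 3832 protein-coding genes nearest to a ChIP-specific peak of any class, 1749 were also nearest to an IgG peak. An IgG promoter peak was assigned to 1, against 3.20%.

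Among the 25 other glycolytic enzyme genes, ChIP-specific peaks were assigned to 2 (8.0%) and an IgG peak to 1 (4.0%), against 17.5% and 17.0% of all genes. Ldhb, the lactate dehydrogenase subunit that favours pyruvate formation, had a promoter peak centred 455 bp upstream of the TSS (chr6:142508301-142508524, FDR 0.0211). Pfkl, the liver-type phosphofructokinase gene, had 3 ChIP peaks. Its 2 ChIP-specific peaks lay 3354 and 4042 bp upstream of the TSS (FDR 0.00769 and 0.00189), and the other, intronic at 2695 bp, overlapped an IgG peak. Among 9 genes of pyruvate dehydrogenase and its regulators, 2 had a ChIP-specific peak (22.2%). Pdp1, the phosphatase that opposes the kinase encoded by Pdk1, had a promoter peak 183 bp downstream of its TSS (chr4:11966126-11966349, FDR 0.0111). Pdk4, another of the pyruvate dehydrogenase kinases, had an intergenic one 7291 bp upstream (FDR 0.0105) and 2 IgG peaks.

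Among 12 other glucose and lactate transporters, 3 had a ChIP-specific peak and 4 an IgG peak. Both counts were above the shares over all genes, 17.5% and 17.0%, and the difference was not tested. Slc2a12, encoding GLUT12, had 2 ChIP-specific peaks, an intronic one 3892 bp downstream of its TSS (FDR 0.00880) and an intergenic one 34361 bp upstream (FDR 0.0258). Slc2a13, the proton-myoinositol transporter gene, had an intronic one at 39358 bp upstream of the TSS named by the authors (FDR 0.00849), and Slc16a7, encoding the monocarboxylate transporter MCT2, 5 intergenic ones, the nearest 183854 bp from its TSS. All 3 also had IgG peaks. Among 20 partners and regulators of HIF and MYC, 2 had a ChIP-specific peak and 5 an IgG peak. Against 17.5% and 17.0% of all genes, the ChIP-specific count was lower and the IgG count higher. The ChIP-specific peaks were intergenic, 12491 bp downstream of the TSS of Mycn, a paralogue of Myc, and 49737 bp downstream of that of Hif1an, which encodes an asparagine hydroxylase that inhibits HIF. Mycn and Hif1an also had IgG peaks, the nearest 10804 bp and 44312 bp downstream of the TSS. The promoter peak of Arnt2, a partner of HIF subunits that was named after its values were seen, was called with both antibodies.

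Among 45 genes of the mTOR complexes and the signals upstream, 5 had a ChIP-specific peak (11.1%) and 4 an IgG peak (8.89%), 1 of them both. The shares over all genes were 17.5% and 17.0%, and 7.99% for both. Pik3cb had the promoter peak shown in its window above (chr9:99140226-99140349, 125 bp, FDR 0.0269), centred 200 bp upstream of the annotated TSS and 76 bp upstream of the RefSeq start, and 124 bases of the window were inside it. Rragb, a Rag GTPase gene, had one at a transcription termination site 14075 bp downstream of its TSS (FDR 0.0239). Sesn1, a sestrin gene, and Prkaa2, an AMPK catalytic subunit gene, both named after their values were seen, had intronic peaks 16061 and 36878 bp from the TSS. Counting any ChIP-specific peak that lay inside a gene or at most 5 kb from it, whatever gene it had been assigned to, 6 of the 45 genes had one, against 16.8% of all genes. Deptor, an inhibitor of mTOR that was named after its values were seen, had 2 such peaks in its body, both assigned to the predicted gene Gm26296. A ChIP-specific peak that lay in the gene body and was assigned to another gene was found in 5 of the 111 pathway genes, against 4.95% of all genes.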

How the data were processed

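Reads were aligned to mm10 (GRCm38) with BWA and peaks annotated with HOMER, per the submitters' processing notes, in which versions are lacking. No label names the peak caller, and how the 3 ChIP libraries were pooled is likewise not given in the sources used here. Deposited by the authors were peak lists with a q-value per peak, an FDR printed to 6 decimals and under 0.05 in each list, and HOMER tables whose peak score equals the peak length in bp for every annotated peak. Lengths are multiples of 25 bp. Distances to the TSS are signed, negative upstream.

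Peaks were joined to their annotation by position, and overlap means at least 1 bp. Older gene symbols were replaced through RefSeq (GRCm38.p6), which gave gene bodies and promoter windows; 46.1% of ChIP-specific peaks were nearest to a protein-coding gene. Promoter windows of 32851 starts come from RefSeq. Overlap, distance and motif code was tested on simulated intervals and sequences (Python 3.11.15, numpy 2.4.6, pandas 2.3.3). No statistical test was run, as no list gives values per library. The 10 genes and the 5 pathway lists were chosen with earlier results of these data known. Named were all 10 genes, pathway genes with a ChIP-specific promoter peak, up to 3 per list with the ChIP-specific peak nearest to the TSS, and the neighbours assigned a peak inside 1 of the 10. Genes assigned a peak outside the 10 genes but within 100 kb were named after their values were seen. Other names are marked, and 1 pathway gene that the rule names is not reported here. The alternatives changed the gene assignment, the FDR and length thresholds, the overlap with IgG, the promoter definition and the window.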

Additional observations from a re-analysis of the deposited data

How the results depend on the processing

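Of 25 recomputed values, 21 stayed within 1.5 times the value reported. For counts this small that limit is loose. The genes nearest to a ChIP peak fell from 3 to 2 with an FDR of 0.01 or less, and likewise with peaks of 200 bp or longer, and still counted as within it. Restricting peaks to a TSS within 100 kb could not change the counts of the 10 genes, whose assigned peaks lay at most 24825 bp away. With an FDR of 0.01 or less, 1 of the 10 genes was nearest to a ChIP-specific peak (Mtor) in place of 2, and 0 had a ChIP-specific promoter peak in place of 2. With peaks of 200 bp or longer, 1 was nearest to a ChIP-specific peak. With any peak within 2000 bp of the TSS as a promoter peak, 1 of the 10 genes, Hk1, had an IgG promoter peak in place of 0. The Slc2a3 peak is lost under both thresholds by their construction, since it is 175 bp long with an FDR of 0.0343. Counting peaks inside a gene or at most 5 kb from it, 3 genes had a ChIP-specific one, against 16.8% of all genes. For the FDR, length and 2000 bp settings above, the shares over all genes were not computed. The counts over RefSeq promoter windows were added after seeing the data. With windows of 50 kb in place of 100 kb, the density of ChIP-specific peaks went from below to above that of all genes (4.55 against 4.38 per Mb). No replicate could be left out, as each list covers its antibody as a whole. No paired analysis was possible because the lists carry no replicate. Peaks have no count or height, so the depth is unknown, and counts as small as 2 or 3 genes of 10 change by a large factor with 1 peak.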

Other observations

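Beyond the peaks assigned to them, 5 pathway genes held 7 ChIP-specific peaks in their bodies that the authors' annotation gave to another gene. These 5 are 4.50% of the 111 pathway genes, near the 4.95% of all protein-coding genes with such a peak, and they were picked out after their values were seen. The body of Eno3, the muscle enolase gene, contained the promoter peak of Pfn1, a profilin gene (chr11:70654351-70654674, 325 bp, FDR 0.00597, 86 bp from the TSS of Pfn1). Slc2a13 held 2 intronic peaks, assigned to CN725425 and Gm15381. Deptor also held 2, at FDR values of 0.0179 and 0.0183. Hif3a and Pik3r1 held 1 each, at 0.0263 and 0.0216.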
